A study of Mus musculus with 40 samples.

Results

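The DNA-binding activators of the mammalian circadian clock are encoded by Arntl, the gene of Bmal1, by its paralogue Arntl2, the gene of Bmal2, and by the partner genes Clock and Npas2. They were taken by name, after the Ensembl identifiers of the count table had been paired with mouse symbols, and are 4 of the 51789 genes in the table. Their transcripts were followed over 20 groups of mouse melanoma cells with 2 libraries each, 40 in all, made from the 3′ ends of polyadenylated RNA. Totals were 3643332 to 22970049 estimated counts per library, with a median of 10021164.5.

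B16-F10 cells, a pigmented melanoma line, were represented by a Bmal1 knock-out clone and a control clone, for both of which the labels give no Bmal1 vector. YUMM2.1 and YUMM1.7, lines grown from genetically engineered mouse melanomas, stably carried a lentiviral empty vector (EV), wild-type Bmal1 (WT-Bmal1) or a Bmal1 without the basic helix-loop-helix region that contacts DNA (dHLH-Bmal1). The same 3 vectors were put into aC3, a single-cell clone of YUMM2.1 in which Bmal1 had been disrupted by CRISPR. In a further set YUMM2.1 cells with each of the 3 vectors also carried a scrambled hairpin (shNC) or 1 of 2 hairpins against Myh9, shMyh9#2 or shMyh9#4. Comparisons are grouped into 5 experiments, B16-F10, YUMM2.1, aC3, YUMM1.7 and the hairpin set, a division made here because the labels give no date or run. Each knock-out was 1 clone, and the vector-bearing lines were sorted pools. Harvest times and synchronisation of the cells were not given in the sources used here, and neither were the guide positions or the species of the Bmal1 reading frame.

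A Bmal1 or Bmal2 protein pairs with Clock or Npas2, and the pair binds E-box sequences and switches on the Per, Cry and Rev-erb genes and the bZIP output genes Dbp and Tef. Per and Cry proteins then inhibit the pair, while the REV-ERB receptors (Nr1d1, Nr1d2) repress, and the ROR receptors activate, the Arntl gene itself through elements near its start. Knock-out of Bmal1 alone stops behavioural rhythms in mice, whereas Clock and Npas2 can stand in for one another in part.

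The promoters of 3 of these genes are shown because the REV-ERB and ROR receptors are known to act on Arntl through elements near its start. Each RefSeq window (GRCm38.p6) runs from 250 bases before to 50 bases after an annotated start, in the direction of the gene. Capitals mark matches on either strand to TAGGTNA, the core of the REV-ERB and ROR element, or AGGTCA, the nuclear receptor half-site, which lies inside the second match of the Arntl window. Of 2 Arntl and 3 Clock windows in the table, 1 each is printed. The windows are chr7:113207261-113207560 (plus strand) for Arntl, chr5:76304743-76305042 (minus strand) for Clock and chr1:39194022-39194321 (plus strand) for Npas2.
Arntl: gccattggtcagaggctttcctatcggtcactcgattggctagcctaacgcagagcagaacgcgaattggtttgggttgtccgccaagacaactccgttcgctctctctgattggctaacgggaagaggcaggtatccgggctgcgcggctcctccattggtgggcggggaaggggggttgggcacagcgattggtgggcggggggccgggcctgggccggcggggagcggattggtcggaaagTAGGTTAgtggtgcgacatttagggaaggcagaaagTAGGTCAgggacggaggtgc
Clock: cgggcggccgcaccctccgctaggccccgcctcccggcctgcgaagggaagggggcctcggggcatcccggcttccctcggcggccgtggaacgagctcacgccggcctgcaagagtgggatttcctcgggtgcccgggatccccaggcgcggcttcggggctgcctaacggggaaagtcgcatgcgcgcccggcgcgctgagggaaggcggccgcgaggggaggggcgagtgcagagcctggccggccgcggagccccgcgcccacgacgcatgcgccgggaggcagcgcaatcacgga
Npas2: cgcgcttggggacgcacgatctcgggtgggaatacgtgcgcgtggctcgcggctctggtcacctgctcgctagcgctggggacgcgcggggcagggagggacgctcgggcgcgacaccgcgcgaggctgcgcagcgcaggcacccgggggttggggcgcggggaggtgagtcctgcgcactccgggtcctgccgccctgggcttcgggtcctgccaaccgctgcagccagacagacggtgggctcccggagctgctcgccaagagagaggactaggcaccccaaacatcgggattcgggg
In the Arntl window TAGGTTA began 6 bases before the start, at -6, and TAGGTCA at position 31. TAGGTNA occurred in 8.29% of 32851 promoter windows of this length, and more than once in 0.557%. AGGTCA occurred in 16.3% and the E-box CACGTG in 7.15%. The printed Clock and Npas2 windows held none of the 3 motifs, which says only that these letters are not in those windows. The other Arntl window held 1 TAGGTNA match, and of the other Clock windows 1 held an AGGTCA match, 119 bases before the start. The single Arntl2 window (chr6:146805280-146805579, plus strand) held none of the 3. It lies inside the annotated gene, which starts at 146796055, so it does not describe the sequence at that start. A match is a description and not evidence of binding.

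The genes lie on chromosomes 7 (Arntl, 113207465 to 113314126, plus strand), 6 (Arntl2, 146796055 to 146833529, plus strand), 5 (Clock, 76209868 to 76304792, minus strand) and 1 (Npas2, 39193731 to 39363236, plus strand) of mm10. Over 40 libraries they gathered 10866, 2602, 26354 and 73 counts. Clock overlapped Gm43658 on its own strand, which held 247 counts, and Npas2 overlapped Gm3617 on its own strand, which held 12 counts, so reads could have been divided differently between them. The Arntl counts may include reads from a Bmal1 construct. Whether they do is not known, and these counts give no way to separate such reads from those of the cell's own gene. A 3′ tag lies outside an edit placed further upstream, so the Arntl level in a knock-out clone does not check the knock-out.

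In YUMM2.1, the values deposited for EV replicate 2 and WT-Bmal1 replicate 1 stood under each other's names in a table published with the study, whereas the other 6 columns that could be matched kept their labels. The fits were therefore repeated with these labels exchanged, where 33 of 33 values of the activator genes kept their side of the threshold, and without both libraries, where 32 of 33 did. The exception is named below. Most of these values had not passed to begin with, and the B16-F10 control against YUMM1.7 involves neither library. The counts therefore say little about the labels, and the calls over all genes, given below, did move. Melanocytic marker genes summed to 19700 to 26000 CPM (counts scaled to the size of the library, the unit of all levels given here) in B16-F10 libraries but to 81.1 to 556 in YUMM2.1, 450 to 620 in aC3, 31.8 to 349 in the hairpin experiment and 10.7 to 14.8 in YUMM1.7. Of the 7 markers 3 were at 0 in YUMM2.1, aC3 and YUMM1.7, and 2 in the hairpin experiment. Leukocyte markers reached at most 0.678 CPM in sum. Fibroblast markers summed to 97.3 to 118 CPM in YUMM1.7 and to at most 27.9 elsewhere, endothelial markers to 3.79 to 26.5 and keratinocyte markers to at most 5.89. The marker Sox10, a melanocyte lineage factor, also moved with the vector. It averaged 494.5 CPM with EV, 484.1 with WT-Bmal1 and 69.0 with dHLH-Bmal1 in YUMM2.1, 330.4 with EV, 99.6 with WT-Bmal1 and 24.4 with dHLH-Bmal1 beside shNC, and 443.2, 547.9 and 574.1 in aC3. The part of these differences in the results was not tested.

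Mean Arntl levels were highest in the groups of YUMM2.1 or aC3 cells that expressed dHLH-Bmal1. The group means ran from 8.51 CPM in YUMM1.7 with EV to 50.7 CPM in YUMM2.1 with dHLH-Bmal1 and shMyh9#4, a 5.96-fold range. These 5 groups filled the upper end of the order, with means of 38.2 to 50.7 CPM. Of the 19 pairs of neighbours in this order, 4 did not overlap between libraries. The lowest of these gaps set both YUMM1.7 libraries with EV below the other 38. The 5 dHLH-Bmal1 groups at the top did not differ from their neighbours beyond the spread between libraries.

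**Figure D1:**
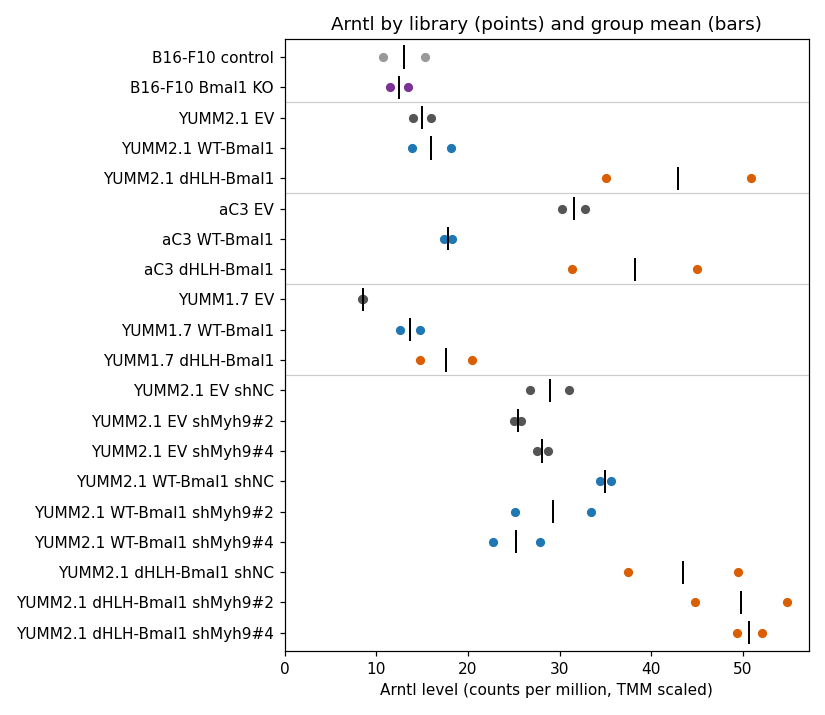
Arntl level in CPM, scaled over all 40 libraries, for each of the 20 groups; points are libraries and bars are group means. The dHLH-Bmal1 groups of YUMM2.1 and aC3 reach means of 38.2 to 50.7, and YUMM1.7 with EV is lowest at 8.51.

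In YUMM2.1, the EV libraries held 16.02 and 13.95 CPM of Arntl. WT-Bmal1 libraries held 13.87 and 18.14, and dHLH-Bmal1 libraries 50.91 and 35.05. Both dHLH-Bmal1 libraries lay above all 4 others, while EV and WT-Bmal1 overlapped. With dHLH-Bmal1 Arntl rose 2.90-fold over EV, a log2 fold change of 1.54 (SE 0.238, 95% interval 0.98 to 2.1, adjusted p = 0.0095, edgeR quasi-likelihood F test with Benjamini-Hochberg adjustment over all genes tested). WT-Bmal1 differed from dHLH-Bmal1 by -1.44 (SE 0.237, adjusted p = 0.012), a call that was lost without WT-Bmal1 replicate 1 (adjusted p = 0.12). WT-Bmal1 against EV gave 0.10 (SE 0.24, interval -0.46 to 0.67, adjusted p = 1).

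Of the 3 activator genes tested in YUMM2.1, 1 was called with dHLH-Bmal1 against EV, in a comparison that called 13.2% of 14323 genes, and 1 with WT-Bmal1 against dHLH-Bmal1, which called 13%. None of them was called with WT-Bmal1 against EV or had an unadjusted p under 0.05 there. That comparison called 0% of all genes with edgeR, with 98 at an unadjusted p under 0.05 and 0 called by DESeq2, but 101 genes with the doubtful labels exchanged and 40 without both libraries. The replicate number as a block raised the all-gene calls to 3877 for dHLH-Bmal1 against EV and to 3727 for WT-Bmal1 against dHLH-Bmal1, from 1894 and 1868. With the 2 doubtful labels exchanged, the 3 Arntl differences were 1.54 (adjusted p = 0.001), -1.44 (adjusted p = 0.0024) and 0.10 (adjusted p = 0.87). Without both libraries they were 1.43 (adjusted p = 0.007), -1.25 (adjusted p = 0.026) and 0.18 (adjusted p = 1).

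In the aC3 clone Arntl was lower with WT-Bmal1 than with either other vector. Arntl read 32.8 and 30.3 CPM in aC3 with EV, 18.2 and 17.4 once WT-Bmal1 was supplied, and 45.0 and 31.4 under dHLH-Bmal1. Both WT-Bmal1 libraries were below the other 4, and the dHLH-Bmal1 and EV libraries overlapped. WT-Bmal1 lowered Arntl to 0.561 of EV (log2 fold change -0.84, SE 0.156, interval -1.17 to -0.50, adjusted p = 0.0036). Against dHLH-Bmal1 the difference was -1.10 (SE 0.155, interval -1.44 to -0.77, adjusted p = 0.0029). For dHLH-Bmal1 against EV it was 0.27 (SE 0.146, interval -0.04 to 0.58, adjusted p = 0.27), and without dHLH-Bmal1 replicate 2 it was 0.49 (adjusted p = 0.018).

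Among the 4 activator genes tested in aC3, Arntl alone passed the threshold, in WT-Bmal1 against EV, which called 11.2% of 13790 genes, and in WT-Bmal1 against dHLH-Bmal1, which called 0.877%. In dHLH-Bmal1 against EV, which called 10.9%, 0 passed with edgeR, 1 had an unadjusted p under 0.05 and 0 passed with DESeq2. The uncomplemented clone also differed from its parent line without a hairpin. In a fit of all 40 libraries, aC3 with EV held 2.12-fold more Arntl than YUMM2.1 with EV (log2 fold change 1.09, SE 0.215, interval 0.65 to 1.53, adjusted p = 0.0026), and 2.48% of 16619 genes were called in that comparison. This call was lost without YUMM2.1 EV replicate 2 (adjusted p = 0.074) and without both doubtful libraries (1.01, adjusted p = 0.052). YUMM2.1 with EV and the scrambled hairpin held 31.1 and 26.8 CPM of Arntl, which overlapped aC3 with EV. That pair was not tested. The clone, the knock-out and any difference in handling, on which the labels are silent, cannot be told apart.

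The effect of each vector was then set against the other background. The response to dHLH-Bmal1 was smaller in aC3 than in YUMM2.1 without a hairpin by 1.25 on the log2 scale (difference -1.25, SE 0.296, interval -1.86 to -0.65, adjusted p = 0.0045), with 11.6% of genes called. For WT-Bmal1 the corresponding difference of -0.94 (SE 0.305) did not pass (unadjusted p = 0.005, adjusted p = 0.35), with 0.168% called. That contrast called 28 genes, and 553 with the doubtful labels exchanged or 125 without both libraries, while the Arntl difference had an adjusted p of 0.092 and 0.28. Between YUMM1.7 and YUMM2.1 the responses of Arntl differed by -0.49 for dHLH-Bmal1 (adjusted p = 0.42, 9.42% of genes called) and by 0.57 for WT-Bmal1 (adjusted p = 1). The last contrast called 0% of genes with edgeR, with 351 at an unadjusted p under 0.05 and 1 called by DESeq2.

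YUMM1.7 had the least Arntl with EV, 8.43 and 8.60 CPM, against 14.8 and 12.6 under WT-Bmal1 and 14.8 and 20.4 under dHLH-Bmal1. Both vector groups lay above EV without overlap, and they overlapped one another. Arntl rose 2.08-fold with dHLH-Bmal1 (log2 fold change 1.05, SE 0.188, interval 0.65 to 1.45, adjusted p = 0.014). With WT-Bmal1 the difference of 0.68 (SE 0.191, interval 0.28 to 1.09) had an unadjusted p of 0.0025 and an adjusted p of 0.22, and with no filter on low counts the adjusted p was 0.031. WT-Bmal1 and dHLH-Bmal1 differed by -0.37 (SE 0.178, adjusted p = 0.34). The dHLH-Bmal1 call was lost without EV replicate 1 (adjusted p = 0.20), EV replicate 2 (0.19) or dHLH-Bmal1 replicate 2 (0.26), and in a fit of all 40 libraries (0.096). Of 3 activator genes tested, 1 was called with dHLH-Bmal1 against EV, beside 0.63% of 13816 genes, and 0 with WT-Bmal1 against EV (0.138%) or against dHLH-Bmal1 (2.57%). In the last 2 comparisons 2 and 1 of them had an unadjusted p under 0.05. DESeq2 called none of the 3 against dHLH-Bmal1 and gave no adjusted p for any of them against EV.

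In the hairpin experiment with shNC, Arntl read 31.1 and 26.8 CPM with EV, 35.6 and 34.4 under WT-Bmal1 and 49.4 and 37.5 under dHLH-Bmal1. The 3 vector groups did not overlap. Arntl rose 1.53-fold with dHLH-Bmal1 over EV (log2 fold change 0.61, SE 0.153, interval 0.29 to 0.94, adjusted p = 0.0052). The call was lost without EV replicate 2 (0.49, adjusted p = 0.083) and without dHLH-Bmal1 replicate 1 (0.39, adjusted p = 0.16). WT-Bmal1 differed from EV by 0.27 (SE 0.157, adjusted p = 0.20) and from dHLH-Bmal1 by -0.34 (SE 0.152, adjusted p = 0.24). Here 1 of 3 activator genes was called with dHLH-Bmal1, in a comparison that called 34.5% of 14027 genes, a share so high that 1 of 3 is near the background. With edgeR 0 were called with WT-Bmal1 against EV (31.9%) or against dHLH-Bmal1 (4.63%), with 0 and 1 at an unadjusted p under 0.05, and DESeq2 called 0 in both.

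With knock-down of Myh9, which encodes the heavy chain of non-muscle myosin IIA, no Arntl difference passed the test. Myh9 itself fell with shMyh9#2 by 1.51, 2.04 and 1.69 on the log2 scale in EV, WT-Bmal1 and dHLH-Bmal1 cells, and with shMyh9#4 by 0.52, 0.93 and 0.42. Arntl with shMyh9#2 and shMyh9#4 read 25.04, 25.82, 28.73 and 27.51 CPM in EV cells, 33.5, 25.1, 27.8 and 22.7 in WT-Bmal1 cells and 44.8, 54.9, 52.1 and 49.4 in dHLH-Bmal1 cells. The 6 log2 differences from shNC ran from -0.47 (shMyh9#4 in WT-Bmal1 cells, interval -0.85 to -0.09, adjusted p = 0.29) to 0.22 (shMyh9#4 in dHLH-Bmal1 cells, adjusted p = 0.43). Of the 6, 0 were called by edgeR or DESeq2 and 1 had an unadjusted p under 0.05.

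In the Myh9 comparisons 1 activator gene, Arntl2, was called once, with shMyh9#4 in dHLH-Bmal1 cells, where 15.1% of 14848 genes were called. With edgeR and with DESeq2, 0 of the 3 tested were called with shMyh9#2 in EV cells (14.4% of genes), WT-Bmal1 cells (4.76%) or dHLH-Bmal1 cells (0.559%), or with shMyh9#4 in EV cells (1.71%) or WT-Bmal1 cells (0.236%), where DESeq2 gave an adjusted p for 2. In these 5 comparisons 1 value, that of Arntl with shMyh9#4 in WT-Bmal1 cells, had an unadjusted p under 0.05.

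In the B16-F10 knock-out clone Arntl read 13.4 and 11.5 CPM, against 15.3 and 10.7 in the control clone. The groups overlapped, with a log2 fold change of -0.07 (SE 0.264, interval -0.72 to 0.59, adjusted p = 0.92). Of the 3 activator genes tested 0 were called by edgeR, 0 had an unadjusted p under 0.05 and 0 were called by DESeq2, beside 0.44% of 14556 genes called. Between lines, YUMM1.7 with EV held less Arntl than YUMM2.1 with EV (-0.81, SE 0.229, adjusted p = 0.0072, 31.8% of genes called), a call lost without YUMM2.1 EV replicate 1 (adjusted p = 0.075) or YUMM1.7 EV replicate 1 (0.053). The B16-F10 control held more than YUMM1.7 with EV (0.60, SE 0.224, adjusted p = 0.028, 47.6% called), a call lost without B16-F10 control replicate 1 (0.32, adjusted p = 0.36) or without either YUMM1.7 library (adjusted p = 0.12 and 0.086). Against YUMM2.1 with EV the control gave -0.21 (adjusted p = 0.46, 46.9% called). The labels do not say which lines were handled together, so line and handling cannot be told apart.

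**Figure D2:**
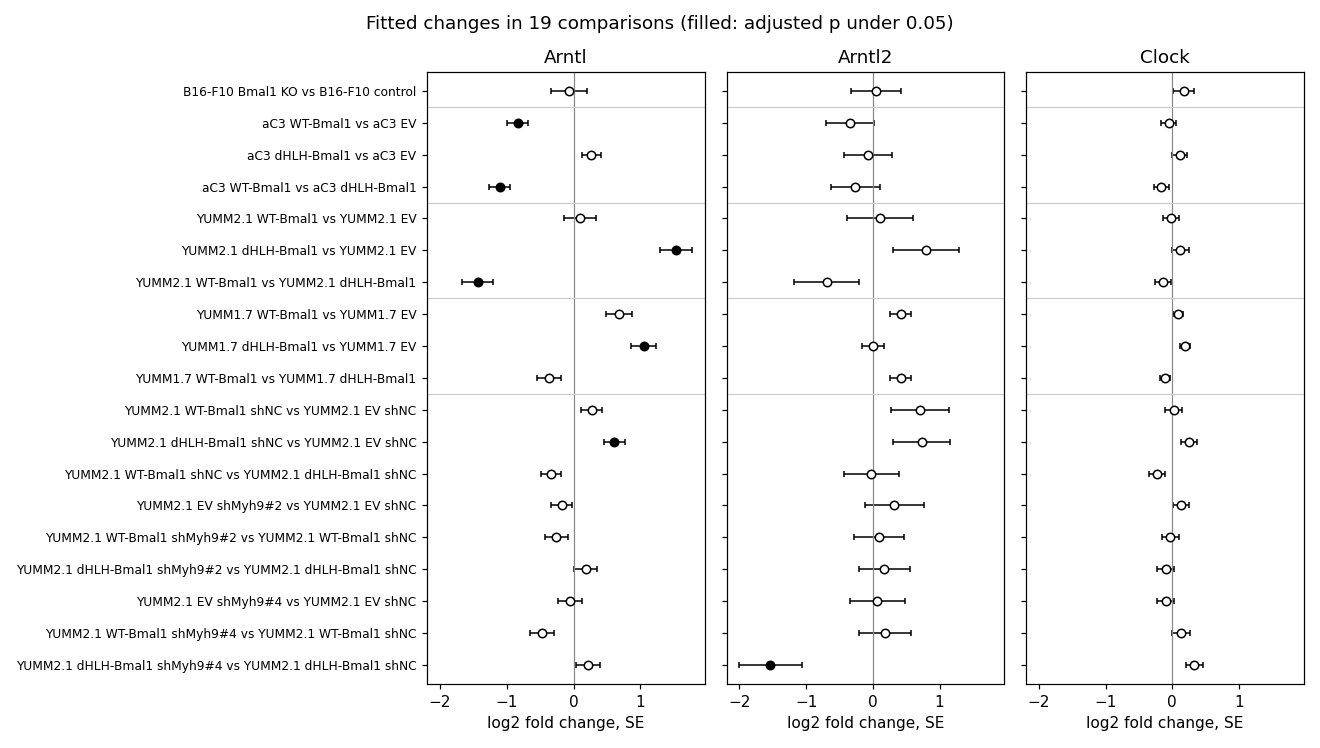
Log2 fold changes with their standard errors for Arntl, Arntl2 and Clock in 19 comparisons within experiments; filled points passed an adjusted p of 0.05. Arntl passed in 6 comparisons, Arntl2 in 1 and Clock in 0.

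Over the 19 comparisons within experiments, Arntl was higher in the first-named group in 3 and lower in 3. The 3 higher ones were all dHLH-Bmal1 against EV. The 3 lower ones all had WT-Bmal1 as the first group, against dHLH-Bmal1 in YUMM2.1 and in aC3 and against EV in aC3.

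Arntl2, the Bmal1 paralogue that also pairs with Clock, marked YUMM1.7 among these lines. It read 14.3 and 12.7 CPM in YUMM1.7 with EV, 17.7 and 18.5 under WT-Bmal1 and 12.2 and 14.7 under dHLH-Bmal1, while the means of the other 17 groups were 2.07 to 6.69. YUMM1.7 with EV held 4.39-fold more Arntl2 than YUMM2.1 with EV (log2 fold change 2.14, SE 0.396, adjusted p = 9.8e-05). The B16-F10 control held less than YUMM1.7 with EV (-2.20, SE 0.381, adjusted p = 2.1e-05). In the order of levels, 3 of 19 neighbouring pairs did not overlap, and the lowest YUMM1.7 group was separated from the highest group outside YUMM1.7.

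Within YUMM1.7 the WT-Bmal1 libraries lay above both other groups, but neither difference passed the test. They were 0.42 against EV (SE 0.157, adjusted p = 0.37) and 0.42 against dHLH-Bmal1 (adjusted p = 0.21). In YUMM2.1 the difference for dHLH-Bmal1 over EV was 0.80 (SE 0.49, adjusted p = 0.34). The single call was in dHLH-Bmal1 cells, where Arntl2 stood at 5.55 and 6.17 CPM with shNC and 2.55 and 1.59 with shMyh9#4. The groups did not overlap, and Arntl2 fell to 0.345 of shNC (log2 fold change -1.53, SE 0.469, interval -2.52 to -0.55, adjusted p = 0.035). This rested on 9 and 9 counts in the shMyh9#4 libraries, which include the shallowest of all 40, and on 80 and 38 with shNC. It was lost without shNC replicate 1 (adjusted p = 0.12), shNC replicate 2 (0.11) or shMyh9#4 replicate 2 (0.32).

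Clock, the partner that carries the histone acetyltransferase activity of the pair, varied least of the 3 genes measured in every library. Its means ran from 46.8 CPM in YUMM2.1 with EV and shMyh9#4 to 85.6 CPM in the B16-F10 knock-out, a 1.83-fold range. In the 19 comparisons within experiments its log2 differences lay between -0.23 and 0.33 and 0 were called by edgeR. An unadjusted p under 0.05 was found in 2, and DESeq2 called 0 of the 18 for which it gave an adjusted p. The difference of 0.33 was that of shMyh9#4 in dHLH-Bmal1 cells, with 71.0 and 74.8 CPM against 59.6 and 57.3 with shNC (SE 0.127, unadjusted p = 0.02, adjusted p = 0.092). Clock read 76.3 and 75.2 CPM in the B16-F10 control and 91.5 and 79.8 in the knock-out.

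Clock was higher in the B16-F10 control than in either other line. The B16-F10 control exceeded YUMM2.1 with EV, at 52.9 and 55.0 CPM, by 0.49 on the log2 scale (SE 0.109, adjusted p = 0.00049), in a contrast that called 46.9% of all genes. It exceeded YUMM1.7 with EV by 0.34 (SE 0.109, adjusted p = 0.01, 47.6% called), a call lost without B16-F10 control replicate 1 (adjusted p = 0.05) or YUMM1.7 EV replicate 1 (0.087) and with no filter on low counts (0.095). YUMM1.7 with EV against YUMM2.1 with EV gave 0.15 (adjusted p = 0.35), and aC3 with EV against YUMM2.1 with EV gave -0.06 (adjusted p = 0.94). In the order of levels, 6 of 19 neighbouring pairs did not overlap.

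**Figure D3:**
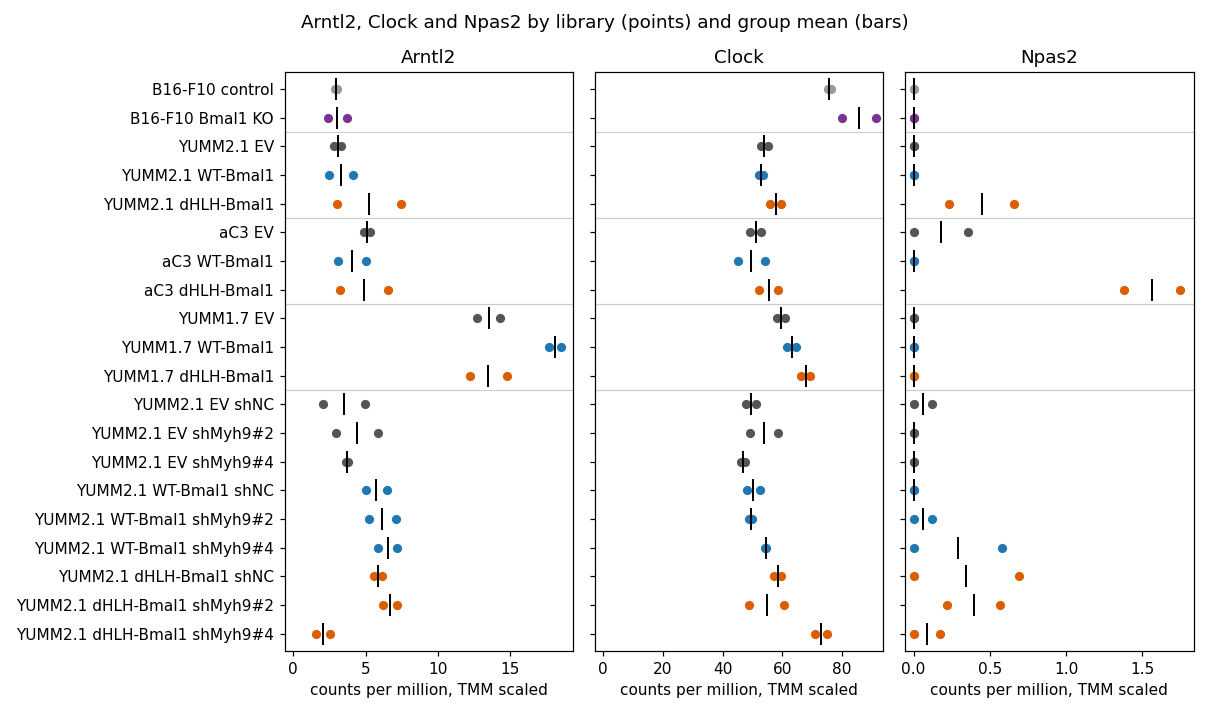
Levels of Arntl2, Clock and Npas2 in CPM for each of the 20 groups, one panel per gene with its own axis; points are libraries and bars are group means. Arntl2 is highest in the 3 YUMM1.7 groups, Clock spans a 1.83-fold range, and Npas2 reaches 1.56 in aC3 with dHLH-Bmal1.

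Npas2, the paralogue of Clock, was detected mainly where dHLH-Bmal1 was expressed in YUMM2.1 or its clone. It was counted 73 times in all, in 12 of 40 libraries. aC3 with dHLH-Bmal1 gave 18 and 13 counts, or 1.63 CPM by library totals (exact Poisson 95% interval 1.11 to 2.32), against 4 and 0 with EV and 0 and 0 with WT-Bmal1. YUMM2.1 with dHLH-Bmal1 gave 7 and 2 counts (0.449 CPM, 0.205 to 0.852) against none in the 4 libraries with EV or WT-Bmal1. These intervals cover counting error only.

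In the hairpin experiment the dHLH-Bmal1 libraries gave 10 and 0 counts with shNC, 1 and 8 with shMyh9#2 and 0 and 1 with shMyh9#4. The counts were uneven between the 2 libraries of a group. The other libraries of that experiment with any count were EV with shNC (1 and 0), WT-Bmal1 with shMyh9#2 (2 and 0) and WT-Bmal1 with shMyh9#4 (0 and 6). The remaining 11 groups, with all of YUMM1.7 and B16-F10 among them, had 0.

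Over all groups, dHLH-Bmal1 libraries held 60 of the 73 counts, in 8 of 12 libraries (0.546 CPM), of which 31 came from the 2 libraries of aC3. WT-Bmal1 libraries held 8, in 2 of 12 (0.0641 CPM), and EV libraries 5, in 2 of 12 (0.0435 CPM). In aC3, dHLH-Bmal1 gave a ratio of 8.87 to EV (exact interval 3.13 to 34.6 for counting error) and was at least 10.7-fold higher than WT-Bmal1, taking 3 counts over the group as the limit of a count of 0. The lower end of the exact interval of that ratio was 8.16. In YUMM2.1 dHLH-Bmal1 was at least 3.06-fold higher than EV and at least 3.17-fold higher than WT-Bmal1 by the same limit, and the lower ends of the exact intervals of these ratios, which take in the counting error of the 9 counts, were 2.01 and 2.08. Npas2 passed the filter on low counts in aC3 alone among the 6 fits within experiments, through the group where it was high, and its adjusted p there was 0.058 for dHLH-Bmal1 against EV and 0.061 for WT-Bmal1 against dHLH-Bmal1. The second passed with no filter on low counts (adjusted p = 0.0045), and both passed with the replicate block (0.041 and 0.029). The 3 activator genes tested elsewhere are thus all but Npas2.

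The genes downstream of the activators were followed with 25 listed clock genes in 4 groups: the repressors (Per1 to Per3, Cry1, Cry2, Ciart), the REV-ERB and ROR receptors, the bZIP and DEC output genes, and the clock kinases and ubiquitin ligases. In aC3, WT-Bmal1 against EV called 8 of 23 tested higher and 3 lower, with a list median of 0.51 beside 0.007 over all genes. It called 11.2% of all genes. The higher ones were Per2 (2.90), Nr1d1 (2.57), Dbp (2.54), Per3 (2.25), Nr1d2 (1.57), Tef (1.36), Rora (0.75) and Bhlhe40 (0.71), all on the log2 scale. The lower ones were Cry1 (-1.07), Nfil3 (-0.95), a bZIP repressor that opposes Dbp, and Rorb (-0.48).

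The per-library levels show how far the groups stood apart. Nr1d1 read 1.86 and 2.12 CPM in aC3 with EV, 10.9 and 13.0 under WT-Bmal1 and 0.485 and 0.637 under dHLH-Bmal1. Dbp read 7.27 and 7.91, then 45.4 and 43.8, then 6.02 and 6.37 CPM in the same order. For both genes WT-Bmal1 was highest and the 3 groups did not overlap.

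With dHLH-Bmal1 against EV, aC3 called 3 of 23 clock genes higher and 3 lower (list median 0.15, all genes 0.011). Nr1d2 (-2.01), Nr1d1 (-1.82) and Per3 (-1.09) fell, and Cry1 (1.12), Rora (0.72) and Cry2 (0.62) rose. YUMM2.1 called 2 of 23 higher and 6 lower (list median 0.01, all genes -0.011), or 4 and 7 with the replicate block or the doubtful labels exchanged and 3 and 7 without both libraries. There Nr1d1 (-2.16), Rorb (-1.62), Nr1d2 (-1.503), Dbp (-1.503), Per3 (-1.19) and Tef (-1.03) fell, and Nfil3 (1.94) and Cry1 (1.13) rose. YUMM1.7 called 1 of 24 higher, Cry1 (1.12), and 5 lower, Nr1d1 (-1.37), Nr1d2 (-1.17), Per3 (-1.09), Dbp (-1.02) and Tef (-0.79), with a list median of -0.07 beside -0.003 over all genes. In YUMM1.7 this depended on the fit, since DESeq2 and a fit of all 40 libraries each called 0 higher and 1 lower. With shNC, 4 of 23 were higher and 4 lower (list median -0.05, all genes 0.018), a share near the 34.5% of all genes called there. Cry1 (0.80), Nfil3 (0.66) and Nr1d1 (-1.27) were among them, and the higher calls numbered 1 to 3 with a library left out, 1 being without EV replicate 2. Cry1 was called higher and Nr1d1 lower in each of these 4 settings by edgeR as reported, the Cry1 call in YUMM1.7 being lost with DESeq2 and in the fit of all 40 libraries.

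WT-Bmal1 against EV called 0 of 23 clock genes in YUMM2.1 and 0 of 24 in YUMM1.7 with edgeR, beside 0% and 0.138% of all genes. Of the clock genes, 0 and 8 had an unadjusted p under 0.05 with edgeR. DESeq2 called 0 in both, although it gave an adjusted p for 1503 genes alone in YUMM1.7. With no filter on low counts 4 were called higher in YUMM1.7. With the 2 doubtful YUMM2.1 labels exchanged it still called none, and Nr1d1 gave 0.50 (adjusted p = 0.40). With shNC it called 4 of 23 higher, Dbp (1.09), Per2 (0.94), Nr1d2 (0.88) and Tef (0.81), and 2 lower, Rorb (-1.95) and Bhlhe40 (-0.55). That comparison called 31.9% of 14027 genes, so 6 of 23 is not above the background. Compared with dHLH-Bmal1, WT-Bmal1 called 6 higher and 2 lower in aC3, in YUMM2.1 and in YUMM1.7. These comparisons called 0.877%, 13% and 2.57% of all genes, so the same count stands against unlike backgrounds. With shNC 5 were higher and 1 lower, beside 4.63% of all genes. In YUMM2.1 the replicate block gave 7 and 4. The B16-F10 knock-out called 1 of 22, Nr1d2 (-2.37, adjusted p = 0.033), beside 0.44% of all genes. Without either control library 0 were called, and without knock-out replicate 1 or 2 there were 6 higher and 5 lower, or 2 and 2.

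Set against YUMM2.1 with EV and no hairpin, aC3 with EV called 8 of 25 clock genes lower and 1 higher, beside 2.48% of all genes. Nr1d1 (-3.15), Per2 (-2.86), Per3 (-2.03), Dbp (-1.76), Nr1d2 (-1.73), Tef (-1.27), Bhlhe40 (-1.06) and Rora (-0.96) fell, and Nfil3 (1.497) rose. Arntl was higher in the same comparison, as given above. Of the 12 other bHLH-PAS genes listed, which share the protein family of the activators, 5 to 7 were tested in each comparison with EV. With dHLH-Bmal1 against EV, Ahr rose in aC3 (0.89) and beside shNC (0.95), and Arnt2 fell in YUMM2.1 (-1.24) and beside shNC (-0.71). For WT-Bmal1 against dHLH-Bmal1, Arnt2 was called higher in YUMM2.1 (1.21) and beside shNC (0.93). With shMyh9#2, Npas3 fell in EV cells (-0.48) and WT-Bmal1 cells (-0.53), and Hif1a rose in WT-Bmal1 cells (0.57). Between EV groups of YUMM1.7 and YUMM2.1, 2 of 8 were higher and 3 lower, beside 31.8% of all genes called.

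**Figure D4:**
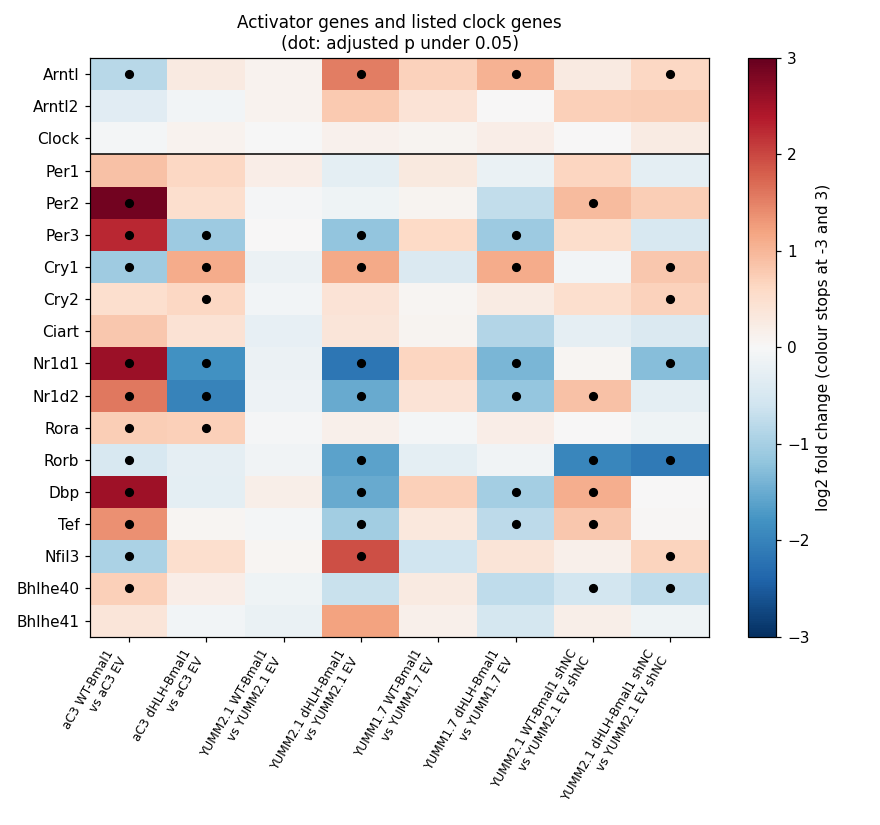
Log2 fold changes of 18 clock genes in 8 comparisons of WT-Bmal1 or dHLH-Bmal1 with EV, as colour; a dot marks an adjusted p under 0.05. Nr1d1 is lower and Cry1 higher in all 4 dHLH-Bmal1 columns, whereas Per2, Nr1d1 and Dbp rise with WT-Bmal1 in aC3.

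Across the 20 group means of log2 CPM, each centred on the mean of its cell line or experiment, Arntl varied with Nfil3 (r = 0.82) and Cry1 (r = 0.77) and against Nr1d1 (r = -0.77), Bhlhe40 (-0.73), Per3 (-0.71), Tef (-0.71), Dbp (-0.67) and Nr1d2 (-0.64). Without centring the value was -0.14 for Nr1d1 and 0.90 for Nfil3. The points share libraries, vectors and experiments, so these are descriptions. Clock gave 0.60 with Arntl after centring and -0.32 before, and Arntl2 gave 0.15 after centring.

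**Figure D5:**
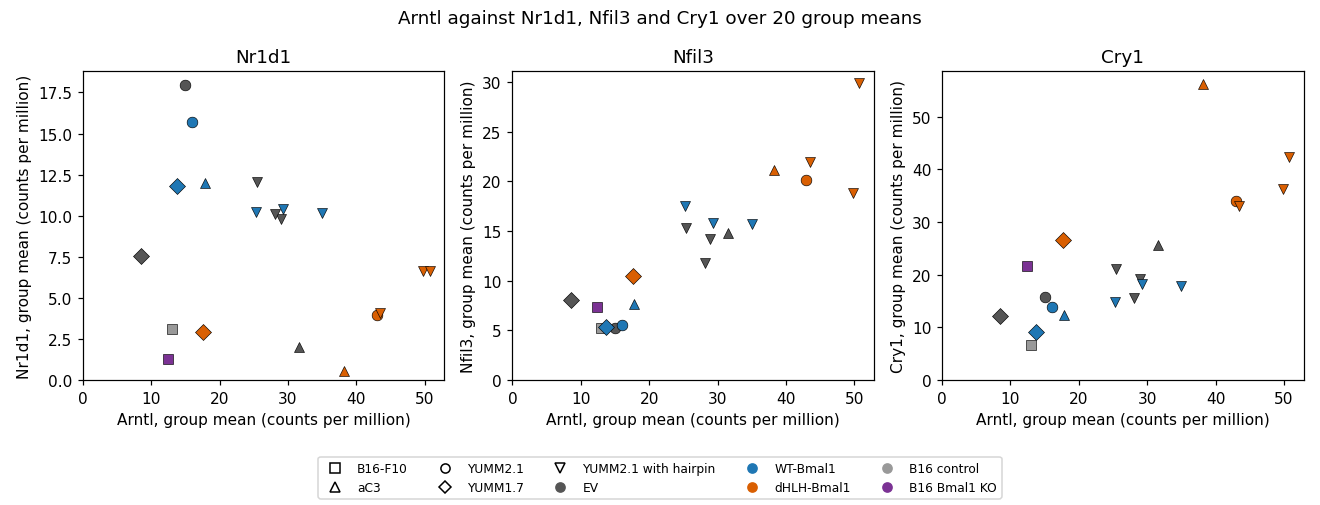
Arntl against Nr1d1, Nfil3 and Cry1 over the 20 group means, plotted in CPM on linear axes. The r values given here were computed on log2 CPM. Nfil3 and Cry1 are high where Arntl is high, with uncentred r of 0.90 and 0.76, while the uncentred r for Nr1d1 is -0.14.

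Among all genes with enough counts, the centred pattern most like that of Arntl over the 20 groups was that of Anxa5 (r = 0.91), then Prkcd (0.84) and Sdf2l1 (0.82). The most opposed were Zfp652 (-0.88), Zbtb10 (-0.88) and Nwd2 (-0.86). Uncentred, Nfil3 (0.90), Pkm (0.87) and Fgd3 (0.86) came closest. For Arntl2 the closest were Fbxl8 (0.89), Calhm2 (0.89) and Fam102b (0.88), and Fam102b was also among the closest 3 uncentred (0.91). For Clock they were Olfr461 (0.89), Gpr107 (0.89) and Zfp280d (0.88), none of which was among the closest 3 uncentred, where Senp6 (0.92) led.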

How the data were processed

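Libraries were made from DNase-treated total RNA with the QuantSeq FWD 3′ kit and read as single 75-base reads on a NextSeq 500. The authors aligned reads to mm10 with bowtie2 and quantified genes with RSEM (version 1.2.3 in the submitters' processing notes, whereas the methods name another), and deposited estimated counts as whole numbers. The annotation release and the strand setting were not given in the sources used here. The authors tested with DESeq2.

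Here, 51789 genes were matched to symbols (99.63%), and 27946 had a count. The groups were divided into 5 experiments by cell line, clone and use of hairpins (the labels give no date or run), and each was fitted separately with edgeR 4.0.16 (R 4.3.3) on counts as deposited, with TMM scaling, filterByExpr and a quasi-likelihood F test. In the hairpin set, a fit of 8 libraries (14027 genes) gave the comparisons among shNC groups and that of shMyh9#2 in EV cells. A fit of all 18 hairpin libraries (14848 genes) gave the other hairpin comparisons. P-values were adjusted over all genes tested by the Benjamini-Hochberg method, with a threshold of 0.05. Contrasts between lines and differences between responses came from a fit of all 40 libraries. SE was the log2 fold change divided by the square root of F. Levels are CPM scaled by TMM over 40 libraries, so 1 CPM was 3.64 to 23.0 counts. Differences between libraries of a group exceeded sampling noise (chi-square per degree of freedom 2.68 to 96.5, Pearson r of log2 CPM 0.962 to 0.991). The study calls the duplicates of several of these sets biological replicates. The labels do not say whether the 2 libraries of a group came from separate cultures, so p-values measure only the spread between these libraries. Same-numbered libraries deviated from their group means together in YUMM2.1 (mean r 0.328, from 0.187 to 0.415 over 3 pairs of groups). In the others the mean r was -0.006 to 0.0963, although single pairs in the hairpin set ran from -0.162 to 0.229. YUMM2.1 counts that a replicate block moved by over 1.5 times are therefore given with it. A permutation test of 2 against 2 cannot reach p under 0.333, so none was run. The procedure was tested on simulated counts.

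Genes named were the 4 activators, 25 clock genes and 12 other bHLH-PAS genes in lists, Myh9, and for each of Arntl, Arntl2 and Clock the genes most like and most unlike it across group means (log2 CPM, prior count 2, genes with a mean of at least 10 counts). The members and lists were chosen with earlier results of these data known. Alternatives were DESeq2 1.42.0, its size factors, 2 other filters, a fit of all 40 libraries, a replicate block, each library left out, the exchanged YUMM2.1 labels and another prior count. Leaving out libraries in the 40-library contrasts, and the limit of 3 counts and the exact ratio intervals for Npas2, were added after seeing the data.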

Additional observations from a re-analysis of the deposited data

Results flagged for a closer look

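The response of Arntl to dHLH-Bmal1 differed between the Bmal1-disrupted aC3 clone and its parent line YUMM2.1 without a hairpin. The difference between the 2 log2 fold changes over EV was -1.25 (SE 0.296, interval -1.86 to -0.65, adjusted p = 0.0045 for the interaction in the edgeR fit of all 40 libraries), 1.54 in YUMM2.1 and 0.27 in aC3. Beside shNC, YUMM2.1 held 28.9 CPM with EV and its response was 0.61 (interval 0.29 to 0.94), which was not tested against aC3. Arntl was higher with dHLH-Bmal1 than with EV in 2 of 2 libraries of YUMM2.1 without a hairpin. In aC3 the EV level was 31.5 CPM, against 15.0 in YUMM2.1, while the dHLH-Bmal1 levels of 38.2 and 43.0 CPM overlapped. The difference stayed between -1.55 and -0.97 when single libraries were left out, and was -1.26 with the 2 doubtful YUMM2.1 labels exchanged and -1.18 without both (adjusted p = 0.0028 and 0.018).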

How the results depend on the processing

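Of 1012 values recomputed under other settings, 987 were scored as unchanged, 20 no longer passed and 5 newly passed. The unchanged ones include 96 correlations recomputed with another prior count, which have no threshold and were scored by the shift in r. The others scored as unchanged kept their side of the threshold. Many of these had no call to lose, since within experiments Clock passed in 0 and Arntl2 in 1 of 19 comparisons. A value that passed neither before nor after was scored as unchanged whatever its sign. The total therefore says little about how firm the calls are. The sign changed in 46, 38 of them with a library left out, and 0 of the 46 passed the test before or after. The causes of these changes were not tested. For Arntl, the YUMM1.7 difference of WT-Bmal1 from EV was 0.68 and passed with no filter on low counts (adjusted p = 0.031), that of dHLH-Bmal1 from EV was 1.05 and did not pass in a fit of all 40 libraries (0.096), and aC3 with EV against YUMM2.1 with EV was 1.01 and did not pass without both doubtful libraries (0.052). For Clock, the B16-F10 control against YUMM1.7 with EV was 0.35 and did not pass with no filter (0.095), and Npas2 in WT-Bmal1 against dHLH-Bmal1 in aC3 newly passed with it (0.0045). DESeq2 gave no adjusted p for Arntl in the YUMM1.7 comparisons with EV.

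With single libraries left out, where a lone library was taken to vary like the other groups, Arntl log2 differences ran from -0.018 to 0.49 for dHLH-Bmal1 against EV in aC3, -1.67 to -1.15 for WT-Bmal1 against dHLH-Bmal1 in YUMM2.1, 0.79 to 1.27 for dHLH-Bmal1 against EV in YUMM1.7 and 0.39 to 0.78 with shNC. Between groups of different experiments they ran from -0.91 to -0.70 for YUMM1.7 against YUMM2.1, 0.32 to 0.83 for the B16-F10 control against YUMM1.7 and 0.97 to 1.196 for aC3 against YUMM2.1. Arntl2 with shMyh9#4 in dHLH-Bmal1 cells ran from -1.88 to -1.18, and Clock in the B16-F10 control against YUMM1.7 from 0.31 to 0.39. WT-Bmal1 against EV in aC3 (-0.89 to -0.78) and dHLH-Bmal1 against EV in YUMM2.1 (1.24 to 1.77) passed without any 1 library.

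With the replicate number as a block, all-gene calls rose from 64 to 249 in B16-F10 and from 121 to 280 for WT-Bmal1 against dHLH-Bmal1 in aC3, where the libraries share only a number. The block gave 1.53 for Arntl with dHLH-Bmal1 against EV in YUMM2.1 (adjusted p = 0.00058). With it the adjusted p of Npas2 in aC3 was 0.041 for dHLH-Bmal1 against EV and 0.029 against WT-Bmal1. Npas2 passed the filter there only through the dHLH-Bmal1 group where it was high, so these 2 values are descriptions. The block changed no other call of the 4 genes. All-gene counts moved by over 1.5 times in many comparisons, for example from 64 to between 40 and 6612 in B16-F10 with single libraries left out and from 1501 to between 160 and 1993 for dHLH-Bmal1 against EV in aC3 under the other settings. The shallowest library held 3643332 counts, so that 1 CPM was 3.64 counts there, and Npas2 was near this limit throughout.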

Other observations

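YUMM2.1 cells with EV were profiled both without a hairpin and with the scrambled one. Arntl read 15.0 CPM without the hairpin and 28.9 with it, and Nfil3, a bZIP repressor, 5.28 and 14.2. Nr1d1 read 17.9 and 9.83, Dbp 26.1 and 10.7 and Tef 104.4 and 53.0. These 5 genes were chosen after their values were seen, and the differences were not tested. Hairpin, selection and handling cannot be told apart.

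The shMyh9#2 hairpin was accompanied by calls among the clock genes in EV cells, where edgeR called 5 of 23 higher and 1 lower than with shNC, beside 14.4% of all genes. DESeq2 called 2 higher and 1 lower, a fit of all 40 libraries 2 and 0, and without any 1 library there were 1 or 2 higher and 0 or 1 lower. By edgeR 0 of 23 were called in WT-Bmal1 and dHLH-Bmal1 cells, beside 4.76% and 0.559% of all genes. Of the 23, 2 and 3 had an unadjusted p under 0.05 with edgeR, and DESeq2 called 0 and 0. The comparison in EV cells came from a fit of 8 hairpin libraries, and those in WT-Bmal1 and dHLH-Bmal1 cells from a fit of all 18. Whether the responses differed between these cells was not tested.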
